A study of Homo sapiens with 6 samples.

Results

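The 44 collagen chain genes were followed in AALE cells, a human bronchial basal epithelial line immortalised with SV40 genes and telomerase. They are all genes of the expected count table whose symbol reads COL, a number, A and a number, without antisense genes, and they were found among 57736 genes, 51959 of which had a symbol. PolyA RNA came from stable, selected pools of AALE cells that carried either a lentiviral control vector (3 libraries) or a lentiviral vector that overexpresses NRG1 (3 libraries). NRG1 encodes neuregulin, a growth factor that binds ERBB receptors, and the series asks how it changes gene expression in airway epithelial cells. Both groups share the SV40 and telomerase background, the small airway growth medium and lentiviral transduction with selection. The labels do not say whether the libraries of a group came from separate pools or cultures, so p-values reflect only how these libraries vary among themselves, and that variation may be technical.

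Collagens are secreted or membrane-bound proteins in which chains wind into helical trimers, and each chain is the product of its own gene. Fibrillar chains build the cable-like fibrils of connective tissue, and fibril-associated chains sit on their surface. Type VI chains form beaded filaments, type VIII and X chains form networks, and type IV chains form the sheet of the basement membrane under an epithelium. Type VII makes the fibrils that anchor the basement membrane to the tissue below, and type XVII is a transmembrane collagen of hemidesmosomes, the junctions by which basal epithelial cells hold on to that membrane.

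Each library held between 8612234 and 13207620 expected counts in total. Levels are given as CPM (counts scaled to a common library size) after TMM scaling, which adjusts each library's size for differences in composition. NRG1 (ENSG00000157168) checked the labels: it stood at 11.6, 7.87 and 12.3 CPM in the controls and at 6647, 3854 and 3781 CPM in the NRG1 libraries. Control 3 and NRG1 1 stood apart from the other libraries of their groups. Over genes with at least 20 counts in a pair, the chi-square per degree of freedom was 18.8 between control 1 and control 2 but 65.7 and 56.3 between control 3 and these. It was 2.66 between NRG1 2 and NRG1 3, still above sampling noise, but 43.2 and 38.1 between NRG1 1 and these. Values are therefore given per library, in the order 1, 2 and 3, and the calls with and without these libraries.

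Most RNA of the family came from chains that hold epithelium to its basement membrane, and the lowest fold changes with NRG1 were those of COL6A3 and COL5A1, chains of pericellular filaments and of fibrils. COL6A3 and COL5A1 were about 9.25-fold and 6.76-fold lower with NRG1 in the fitted model, COL12A1, COL18A1, COL4A1 and COL4A2 between 2.14-fold and 3.34-fold lower, and COL21A1 and COL4A4 3.49-fold and 3.10-fold higher. None passed the test over all genes. In the edgeR quasi-likelihood fit (Benjamini-Hochberg adjustment), 0 of the 24 collagen genes tested had an adjusted p under 0.05, against 0.00648% of the 15421 genes tested (1 gene, NRG1 itself). At an unadjusted p under 0.05, 11 of 24 were lower (6.72% of all genes) and 2 of 24 were higher (5.07% of all genes). In 10 of 24 all NRG1 libraries lay below all controls (10.2% of all genes), and in 3 of 24 all lay above (9.36% of all genes). These 3 are COL21A1, COL4A4 and COL9A2, and COL9A2 reached the minimum of the filter in NRG1 libraries alone, so that filter favoured a higher value and the gene is no support. The median log2 fold change was -0.53 over the 24 genes and 0.00034 over all genes tested. Per library, the median difference of the 24 genes from their control mean was taken on log2 of CPM plus 0.5. It was 0.245, -0.0219 and -0.235 in the controls and -0.706, -0.246 and -0.439 in the NRG1 libraries. Control 3 and NRG1 2 were thus nearly level. The other 20 members did not pass the filter on low counts, so these counts describe the measured chains and not the family.

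DESeq2 with its own size factors called 7 of the 24. COL5A1, COL6A3, COL12A1, COL18A1, COL4A1 and COL4A2 were lower (6 genes, against 0.759% of all genes called lower), and COL21A1 was higher (1 gene, against 0.597%). Without NRG1 1, edgeR called 3 collagen genes as lower, COL5A1, COL6A3 and COL12A1 (background 0.106% lower), and 0 as higher (background 0.206% higher). With no filter on low counts, edgeR called COL5A1 and COL6A3 as lower (2 of 41; background 0.0369% lower) and 0 as higher (background 0.0335% higher). Without both control 3 and NRG1 1, edgeR called 7 of 26 as lower (background 4.77%) and 4 of 26 as higher (background 5.07%). The 7 were COL5A1, COL6A3, COL12A1, COL18A1, COL4A1, COL4A2 and COL8A1, and the 4 were COL21A1, COL4A4, COL4A3 and COL2A1. COL4A3 and COL2A1 passed the filter through the NRG1 libraries alone, so their calls are set by that filter, and the 4 are not read against the background. Control 3 and NRG1 1 were left out because they stand apart, which makes each group look more uniform. The p-values of that comparison are understated to a degree that is not known. Without NRG1 1 alone, the NRG1 group is likewise the close pair NRG1 2 and NRG1 3, so those p-values may be understated too.

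**Figure D1:**
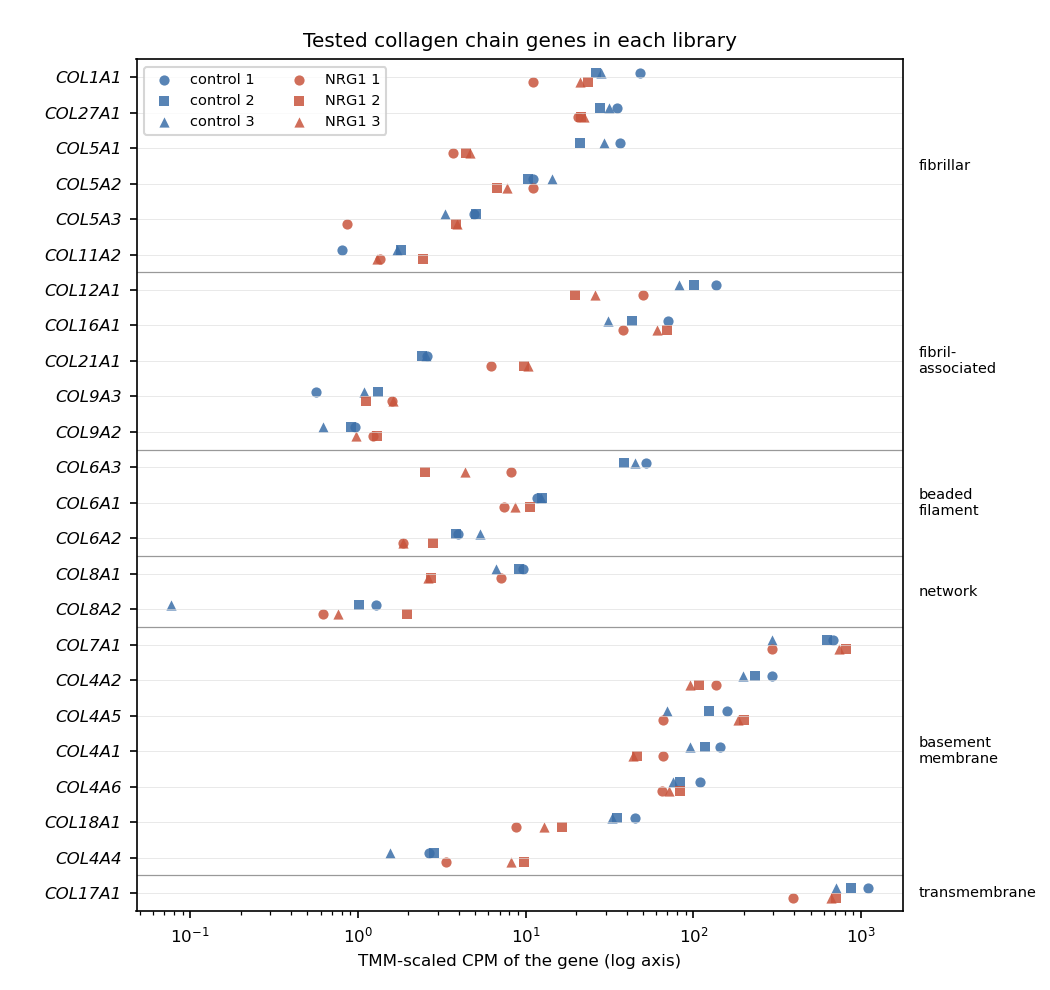
Each point is the TMM-scaled CPM of a tested collagen chain gene in 1 library, on a log axis, with control libraries in blue above and NRG1 libraries in red below each line, grouped by class. The red points of COL5A1 and COL6A3 lie far to the left of the blue ones, those of COL21A1 and COL4A4 lie to the right, and those of COL7A1, COL4A5 and COL16A1 lie among them.

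Among the fibrillar chains, 6 of 11 were tested, 5 with a fold change below 0, and 3 did not overlap between groups, all lower with NRG1 (against 50% and 10.2% of all genes). COL5A1 (ENSG00000130635, chromosome 9), the chain of type V collagen that helps start fibrils, stood at 36.5, 21.0 and 29.2 CPM in the controls and at 3.71, 4.39 and 4.67 CPM in the NRG1 libraries. Every NRG1 library, NRG1 1 included, lay far below every control. The means were 28.9 ± 7.77 and 4.26 ± 0.494 CPM (SD, n = 3 each), and the log2 fold change was -2.76 (SE 0.30; edgeR adjusted p = 0.0633). COL5A2, its partner in the common type V trimer, was at 11.0, 10.3 and 14.4 CPM in the controls and at 11.0, 6.73 and 7.71 CPM with NRG1. NRG1 1 lay inside the control range of COL5A2. COL5A3, another type V chain, was at 4.92, 5.05 and 3.32 CPM in the controls and at 0.865, 3.83 and 3.91 CPM with NRG1, and its low value was that of NRG1 1. The ratio of COL5A1 to COL5A2 per kilobase of transcript was 2.76, 1.70 and 1.70 in the controls and 0.282, 0.546 and 0.506 in the NRG1 libraries. The type V chains thus differed in their measured change, and the groups did not overlap in this ratio.

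The bases before the start of COL5A1, and further on those of COL6A3 and between COL4A1 and COL4A2, are shown because these genes had the lowest fold changes of the family or moved as a pair. They come from RefSeq's promoter windows (GRCh38.p14, a later build than the hg19 named in the submitters' processing notes), and each window held 250 bases before and 50 after a gene's start. Such windows matched 32 of the 44 collagen genes, some with several starts. They were searched on both strands for the motifs TATAAA (the TATA box), CCAAT (the CCAAT box), GGGCGG (a GC box) and TGANTCA (the AP-1 motif), and no match overlapped another in the sequences shown. Of 35116 windows of all genes, 11.5% held the first, 34.6% the second, 45% the GC box and 7.71% the AP-1 motif. Of the 44 windows of collagen genes, 8, 14, 24 and 1 held them. Capitals mark matches, and a match is a description of letters, not of a binding site. The 250 bases before COL5A1 (chr9:134641553-134641802, plus strand) held GGGCGG at 2 places, both on the other strand.
COL5A1: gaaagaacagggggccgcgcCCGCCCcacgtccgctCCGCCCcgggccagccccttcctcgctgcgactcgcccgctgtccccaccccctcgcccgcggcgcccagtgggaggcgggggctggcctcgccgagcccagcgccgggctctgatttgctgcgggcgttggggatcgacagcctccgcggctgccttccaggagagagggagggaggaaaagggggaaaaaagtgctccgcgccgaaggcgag

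COL1A1 (ENSG00000108821, chromosome 17), the major chain of type I collagen in connective tissue, was at 48.2, 26.4 and 28.1 CPM in the controls and at 11.1, 23.5 and 21.1 CPM with NRG1. The groups did not overlap, but NRG1 2 at 23.5 CPM lay close to control 2, and the log2 fold change was -0.88 (SE 0.34; edgeR adjusted p = 0.395). COL1A2, the other chain of the usual type I trimer, was near background. It had 7, 1 and 4 expected counts in the controls and 1, 4 and 2 in the NRG1 libraries, and per kilobase of transcript its level was between 0.00475 and 0.0198 of that of COL1A1 in every library. COL27A1 (ENSG00000196739), a fibrillar chain best known from cartilage, was at 35.0, 27.8 and 31.3 CPM in the controls and at 20.5, 21.5 and 22.1 CPM with NRG1. The spread within the NRG1 group was small (SD 0.818 CPM, n = 3), the groups did not overlap, and the log2 fold change was -0.55 (SE 0.19; edgeR adjusted p = 0.367). COL11A2 lay between 0.806 and 2.43 CPM in all libraries, with no separation of the groups. COL2A1, COL3A1, COL11A1 and COL24A1 did not pass the filter.

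Of the fibril-associated chains 5 of 10 were tested, and they went both ways. COL12A1 (ENSG00000111799, chromosome 6), which links fibrils to the matrix around them, was at 137, 100.4 and 81.5 CPM in the controls and at 50.1, 19.8 and 25.9 CPM in the NRG1 libraries. All NRG1 libraries lay below all controls, and NRG1 1 was the highest of them. The means were 106.2 ± 28.1 and 31.9 ± 16.0 CPM (SD, n = 3 each), with a log2 fold change of -1.74 (SE 0.35; edgeR adjusted p = 0.229). COL21A1 (ENSG00000124749), also of chromosome 6, went the other way, at 2.58, 2.42 and 2.55 CPM in the controls and at 6.18, 9.81 and 10.3 CPM with NRG1. The control libraries were nearly level, and every NRG1 library lay above them, for a log2 fold change of 1.80 (SE 0.33; edgeR adjusted p = 0.192). This gene rested on 24 to 105 expected counts per library.

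COL16A1, a fibril-associated chain that is also found near basement membranes, was at 70.9, 43.2 and 30.9 CPM in the controls and at 37.8, 69.1 and 60.8 CPM with NRG1. The groups overlapped widely, and the lowest libraries were control 3 and NRG1 1. COL9A2 and COL9A3, chains of the cartilage collagen type IX, were near 1 CPM throughout, from 0.564 to 1.63 CPM. All NRG1 libraries lay above the controls in COL9A2, on 8 to 14 expected counts per library and with no control at the minimum of the filter, and the groups overlapped in COL9A3.

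The 3 main chains of type VI collagen assemble into a trimer of 1 chain of each kind before they form beaded filaments. All 3 were tested, and all had NRG1 values below every control (against 10.2% of all genes). In COL6A1 this was by little, since NRG1 2 at 10.7 CPM lay close to control 1 at 11.6 CPM. COL6A3 (ENSG00000163359, chromosome 2), the longest of the 3, was at 52.4, 38.3 and 45.2 CPM in the controls and at 8.16, 2.52 and 4.34 CPM in the NRG1 libraries. It was 45.3 ± 7.02 and 5.01 ± 2.88 CPM by group (SD, n = 3 each), with a log2 fold change of -3.21 (SE 0.38; edgeR adjusted p = 0.0902). No other tested collagen gene had a lower fold change. COL6A1 was at 11.6, 12.5 and 12.3 CPM in the controls and at 7.42, 10.7 and 8.68 CPM with NRG1, and its log2 fold change was -0.44 (SE 0.25; edgeR adjusted p = 0.502). COL6A2 was at 3.95, 3.84 and 5.33 CPM in the controls and at 1.85, 2.80 and 1.84 CPM with NRG1, and its log2 fold change was -0.996 (SE 0.35; edgeR adjusted p = 0.368). COL6A1 and COL6A2, neighbours on chromosome 21, were lower by much less than COL6A3. Per kilobase of transcript, the ratio of COL6A3 to COL6A1 was 1.78, 1.21 and 1.45 in the controls and 0.434, 0.0934 and 0.197 in the NRG1 libraries, with no overlap. COL6A5 was at 0 in all libraries, and COL6A6 had 2 counts in all.

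The 250 bases before the start of COL6A3 (chr2:237414165-237414414, minus strand) held none of the 4 motifs, which says only that these letters are not in this window.
COL6A3: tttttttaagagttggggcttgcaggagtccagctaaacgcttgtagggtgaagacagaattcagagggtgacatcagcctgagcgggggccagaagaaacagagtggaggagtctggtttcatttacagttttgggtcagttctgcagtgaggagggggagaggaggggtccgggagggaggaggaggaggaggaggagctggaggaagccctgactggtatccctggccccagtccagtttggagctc

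Of the network chains, COL8A1 (ENSG00000144810), a short chain made by endothelial and other cells, was at 9.67, 9.08 and 6.64 CPM in the controls and at 7.17, 2.71 and 2.61 CPM with NRG1. NRG1 1 lay inside the control range, so the groups overlapped, and the log2 fold change was -1.05 (SE 0.43; edgeR adjusted p = 0.408). Without control 3 and NRG1 1 it was -1.82 (SE 0.24; edgeR adjusted p = 0.00805). COL8A2 lay between 0.0772 and 1.96 CPM, with its lowest value in control 3 on 1 count. COL10A1, the chain of hypertrophic cartilage, had 1 count in all libraries together.

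**Figure D2:**
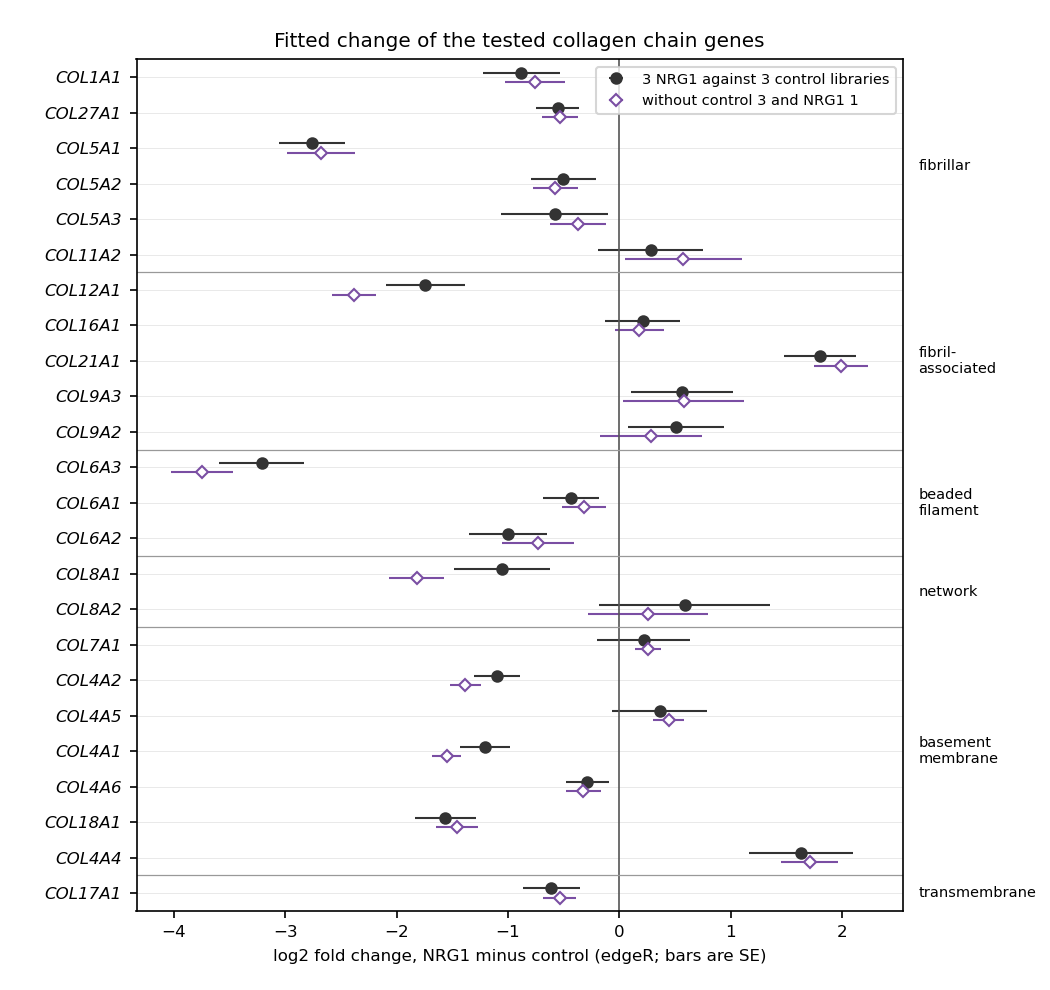
Each marker is the log2 fold change of NRG1 over control fitted by edgeR, with its SE as a bar, for the 24 tested collagen chain genes; filled circles use all 6 libraries and open diamonds leave out control 3 and NRG1 1. COL6A3 and COL5A1 lie below -2 in both, COL21A1 and COL4A4 above 1, and COL12A1 and COL8A1 are lower without these libraries than with all 6.

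The basement membrane chains held both high and low members, and 7 of 9 were tested. Type IV genes lie in pairs that start head to head and are read in opposite directions: COL4A1 with COL4A2, COL4A3 with COL4A4, and COL4A5 with COL4A6. By RefSeq's start sites these pairs lie 127, 419 and 380 bases apart, with a further COL4A6 start at 1416 bases. The pairs did not behave alike. COL4A1 (ENSG00000187498) and COL4A2 (ENSG00000134871), which make the common type IV trimer of basement membranes, were lower in step. COL4A1 was at 143, 118 and 95.9 CPM in the controls and at 65.6, 46.2 and 43.5 CPM in the NRG1 libraries. COL4A2 was at 294, 232 and 198 CPM in the controls and at 136, 108 and 94.9 CPM with NRG1. In both genes NRG1 1 was the highest NRG1 library and control 3 the lowest control, and the groups did not overlap. The log2 fold changes were -1.20 (SE 0.22) for COL4A1 and -1.09 (SE 0.20) for COL4A2, and the edgeR adjusted p was 0.198 for each. Per kilobase of transcript, COL4A1 stood at 0.476 to 0.499 of COL4A2 in control and at 0.421 to 0.473 in NRG1, a much smaller difference than that of the levels.

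The bases between the starts of COL4A1 and COL4A2 are shown because both genes are read outwards from them. The stretch (chr13:110307158-110307283, written on the plus strand, GRCh38.p14) was 126 bases long and held CCAAT once and GGGCGG once, both on this strand.
COL4A1-COL4A2: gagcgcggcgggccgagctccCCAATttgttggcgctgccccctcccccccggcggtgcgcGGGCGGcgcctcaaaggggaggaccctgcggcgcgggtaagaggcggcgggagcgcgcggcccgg

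COL4A3 and COL4A4, whose chains join that of COL4A5 in the basement membranes of kidney and lung, were low but higher in NRG1 2 and NRG1 3. COL4A4 (ENSG00000081052) was at 2.66, 2.83 and 1.54 CPM in the controls and at 3.34, 9.81 and 8.14 CPM with NRG1. Every NRG1 library lay above every control, NRG1 1 only slightly, and the log2 fold change was 1.63 (SE 0.46; edgeR adjusted p = 0.332). COL4A3 had 1, 2 and 2 expected counts in the controls and 0, 19 and 10 in the NRG1 libraries, so it was not detected in NRG1 1. It did not pass the filter with all 6 libraries. Without control 3 and NRG1 1 it passed, but through the NRG1 libraries alone, so its call there is no test of a difference.

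COL4A5 (ENSG00000188153) and COL4A6 (ENSG00000197565) are neighbours on chromosome X, and their chains form a type IV network of epithelial basement membranes such as those under basal cells. COL4A5 was at 158, 124 and 69.6 CPM in the controls and at 66.3, 201 and 185 CPM with NRG1. NRG1 1 was the lowest library and NRG1 2 and NRG1 3 the highest, so the groups overlapped. COL4A6 was at 110, 82.8 and 75.7 CPM in the controls and at 65.0, 82.9 and 72.0 CPM with NRG1. It differed less between libraries than its partner, and the ratio of COL4A5 to COL4A6 per kilobase of transcript ran from 0.940 to 1.53 in control and was 1.04, 2.47 and 2.62 in the NRG1 libraries. The ratio of COL4A5 to COL4A1 per kilobase was 1.14, 1.08 and 0.748 in control, 1.04 in NRG1 1, and as high as 4.46 in NRG1 2 and 4.36 in NRG1 3. In NRG1 2 and NRG1 3, but not in NRG1 1, the measured type IV RNA thus held more COL4A5 for each COL4A1 than in any control.

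**Figure D3:**
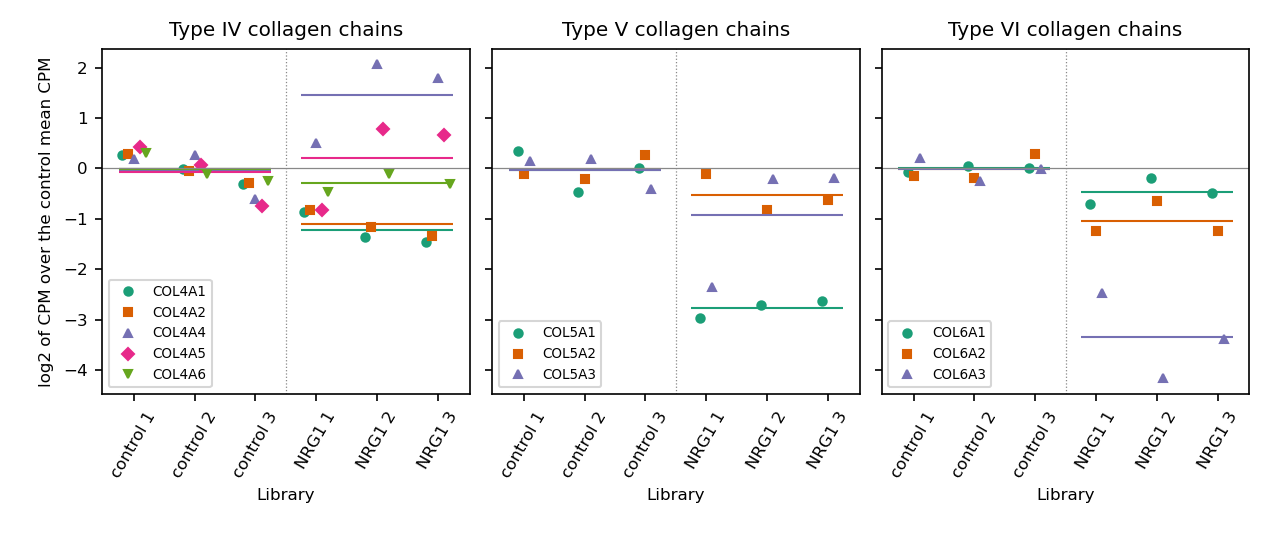
Points give the log2 of the CPM in each library over the mean CPM of the 3 controls, for type IV, type V and type VI collagen chains, and short lines give the mean of these values in each group. COL4A1 and COL4A2 lie together below 0 in the NRG1 libraries while COL4A5 splits between NRG1 1 and the other two, and COL5A1 and COL6A3 lie lower than the other chains of their types in the NRG1 libraries.

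Collagens XV and XVIII carry heparan or chondroitin sulfate chains in basement membranes, and COL18A1 alone of their genes passed the filter. COL18A1 (ENSG00000182871), whose cleaved end is the angiogenesis inhibitor endostatin, was at 45.1, 35.0 and 32.9 CPM in the controls and at 8.78, 16.4 and 12.8 CPM with NRG1. All NRG1 libraries lay below all controls, with the lowest value in NRG1 1, for a log2 fold change of -1.56 (SE 0.27; edgeR adjusted p = 0.184). The exons of COL18A1 share 1401 bases with those of SLC19A1 on the other strand in GENCODE 29, and the labels do not say that strand was used, so reads there cannot be told apart. SLC19A1 itself was at 34.2 CPM in control and 28.3 CPM with NRG1 on average. COL15A1 was not tested, with 6, 11 and 13 expected counts in the controls and 0 in each NRG1 library. With no filter on low counts its edgeR adjusted p was 0.273. Its level over the controls, 0.851 CPM, was at least 7.94-fold higher than the 0.107 CPM that 3 counts over the NRG1 group would give, counting error only.

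COL7A1 (ENSG00000114270, chromosome 3), the anchoring fibril chain, had the most RNA of the basement membrane class, at 676, 624 and 295.3 CPM in the controls and at 295.1, 818 and 743 CPM with NRG1. Control 3 and NRG1 1 were level with each other, and the remaining libraries lay between 624 and 818 CPM. The groups overlapped, with a log2 fold change of 0.22 (SE 0.41; edgeR adjusted p = 0.845). Without control 3 and NRG1 1 the fold change was 0.26 (SE 0.12; edgeR adjusted p = 0.216). For COL4A5 the fold change was 0.36 (SE 0.43; edgeR adjusted p = 0.739) with all libraries and 0.44 (SE 0.14; edgeR adjusted p = 0.0876) without them. Neither gene was called in any of the settings run.

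Of the 4 transmembrane chains COL17A1 was the one tested. COL17A1 (ENSG00000065618, chromosome 10), the hemidesmosomal collagen of basal cells, was at 1101, 876 and 709 CPM in the controls and at 391, 709 and 659 CPM with NRG1. NRG1 2 was level with control 3, so the groups overlapped, and NRG1 1 was the lowest library by far. The log2 fold change was -0.61 (SE 0.26; edgeR adjusted p = 0.415), and it was -0.54 (SE 0.15; edgeR adjusted p = 0.0617) without control 3 and NRG1 1. COL13A1, COL23A1 and COL25A1 had at most 3 expected counts in any library, so a difference in them was not detectable at this depth.

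Per kilobase of transcript, COL17A1 had rank 1 and COL7A1 rank 2 of the 44 genes in both groups, with 157 and 57.3 CPM per kilobase in control and 103 and 66.7 in NRG1 (group means). COL4A2 had rank 3 and COL4A5 rank 4 in control, and they changed places in NRG1. COL6A3 moved from rank 11 to rank 20 and COL5A1 from rank 13 to rank 19, while COL21A1 moved from 19 to 13 and COL4A4 from 22 to 16. Neighbours in this order, such as COL4A5 and COL4A1 in control at 18.2 and 18.0 CPM per kilobase, often lay within the spread of the libraries. Lengths are those of a principal transcript in GENCODE 29 and were not measured in these cells.

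**Figure D4:**
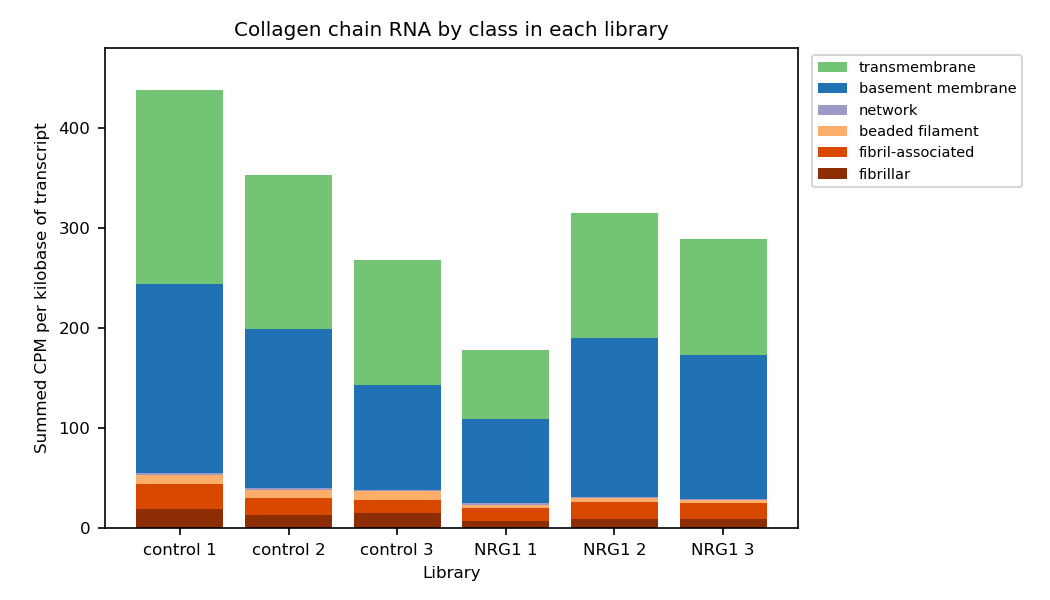
Bars give the CPM per kilobase of transcript summed over the collagen chain genes of each class in each library, stacked from 0; the class of types XXVI and XXVIII, at most 0.113, is left out. Basement membrane and transmembrane chains make up most of every bar, NRG1 1 has the shortest bar at 178, and control 1 the tallest at 438.

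Summed over all 44 genes, collagen RNA was 438, 353 and 268 CPM per kilobase in the controls and 178, 315 and 289 in the NRG1 libraries, so the totals overlapped. The mean total was 352.9 ± 84.9 in control and 260.6 ± 72.7 in NRG1 (SD, n = 3 each). Basement membrane chains took 39.2% to 45.1% of the total in control and 47.6% to 50.6% in NRG1, with no overlap, but their amounts overlapped, at 189, 159.1 and 105 CPM per kilobase in the controls and 84.7, 159.5 and 144 in the NRG1 libraries. Transmembrane chains took 43.6% to 46.5% and 38.7% to 40.1%, also with no overlap, and their amounts in control 3 and NRG1 2 were level, at 124.7 CPM per kilobase each. Beaded filament chains did not overlap in either unit. They summed to 8.75, 7.63 and 8.65 CPM per kilobase in control and to 3.04, 3.57 and 2.99 in NRG1, which was 2.00% to 3.23% and 1.03% to 1.71% of the total. Fibrillar chains summed to 18.6, 12.8 and 14.7 in control and to 6.73, 9.15 and 8.77 in NRG1, with no overlap, but their shares, 3.62% to 5.49% and 2.90% to 3.78%, did overlap. Fibril-associated and network chains overlapped between groups in CPM per kilobase and in share. In CPM not divided by length, fibril-associated chains summed to 212.6, 149.1 and 117.6 in control and to 97.0, 102.1 and 100.5 in NRG1. Those sums did not overlap, so the result for this class depends on the unit. In bulk RNA a lower share of cells with a chain and less of its RNA per cell cannot be told apart.

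The 20 genes that did not pass the filter were at trace levels, with at most 19 expected counts in any library, and COL6A5, COL9A1 and COL19A1 were at 0 in all 6. COL3A1, a fibrillar chain of connective tissue, had 4, 7 and 4 counts in control and 0, 1 and 0 in NRG1. COL2A1, the cartilage chain, had 2, 3 and 8 counts in control and 3, 17 and 13 in NRG1, and it too passed the filter through NRG1 libraries alone when control 3 and NRG1 1 were left out. COL22A1 had 7 or 8 counts in each control and 0, 6 and 5 in NRG1.

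Collagen chains are hydroxylated and folded in the endoplasmic reticulum before export, and 22 of 22 genes of this synthesis list were tested. None passed edgeR over all genes (0 of 22). At an unadjusted p under 0.05, 8 were lower and 1 higher (6.72% and 5.07% of all genes). In 9 the NRG1 libraries lay below all controls and in 1 above (10.2% and 9.36% of all genes). Both counts of lower genes include P4HA3, at 3.47, 1.41 and 1.93 CPM in the controls and at 0.989, 0.747 and 0.651 CPM with NRG1. P4HA3 reached the minimum of the filter in control libraries alone, so that filter favoured a lower value and the gene is no support. The median log2 fold change was -0.29. P3H2, a prolyl 3-hydroxylase, was at 54.7, 42.9 and 47.3 CPM in the controls and at 25.5, 31.7 and 29.1 CPM with NRG1. P3H1, which modifies fibrillar chains, was at 50.1, 44.0 and 49.8 CPM in the controls and at 32.5, 28.2 and 22.1 CPM with NRG1. The lysyl hydroxylase gene PLOD1 was at 165, 145 and 205 CPM in the controls and at 122, 87.8 and 78.8 CPM with NRG1, and these 3 genes had log2 fold changes of -0.75 to -0.84 (edgeR adjusted p from 0.315 to 0.318). CREB3L1, a transcription factor of secretory matrix genes, was at 3.95, 2.42 and 4.71 CPM in the controls and at 1.98, 1.31 and 1.19 CPM with NRG1. The groups did not overlap in any of these 4 genes, but they were named for the smallest p of the list, so this adds no support. DESeq2 called 2 of the 22 genes, P3H2 and P3H1, both lower, against 0.759% of all genes called lower.

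Outside the cell, procollagen ends are cut off and fibrils are cross-linked, and 13 of 15 genes of this list were tested, with 0 called by edgeR, 2 lower and 2 higher genes by unadjusted p (6.72% and 5.07% of all genes), and a median log2 fold change of -0.35. ADAMTS2, the protease that removes the amino end of fibrillar procollagens, was at 20.9, 19.5 and 21.2 CPM in the controls and at 4.33, 7.75 and 9.44 CPM with NRG1. Every NRG1 library lay far below the controls, and the log2 fold change was -1.50 (SE 0.30; edgeR adjusted p = 0.224, DESeq2 adjusted p = 0.0015). PXDN, the peroxidase that cross-links type IV collagen, was at 40.1, 40.5 and 30.1 CPM in the controls and at 42.8, 106 and 98.9 CPM with NRG1. NRG1 1 lay barely above the controls, and the log2 fold change was 1.17 (SE 0.33; edgeR adjusted p = 0.332). ADAMTS14 was at 1.05, 2.32 and 0.849 CPM in the controls and at 0.618, 6.73 and 7.82 CPM with NRG1, and TLL1, a procollagen C-proteinase, was at 7.82, 6.05 and 5.10 CPM in the controls and at 5.19, 2.99 and 2.39 CPM with NRG1. The groups overlapped in both, through NRG1 1.

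Of the collagen receptor and uptake list 9 of 12 genes were tested, 0 were called by edgeR, and at an unadjusted p under 0.05 there were 2 lower and 0 higher genes (6.72% and 5.07% of all genes), with a median log2 fold change of -0.26. ITGA10, a collagen-binding integrin subunit, was at 7.17, 6.76 and 9.11 CPM in the controls and at 1.85, 2.90 and 2.28 CPM with NRG1, and its log2 fold change was -1.69 (SE 0.33; edgeR adjusted p = 0.207, DESeq2 adjusted p = 0.00313). DDR2, a receptor kinase for fibrillar collagen, was at 1.94, 2.83 and 22.5 CPM in the controls and at 1.11, 1.21 and 1.303 CPM with NRG1. Its control level was set by control 3, and without that library the log2 fold change was -0.96 in place of -2.92. DDR1, the collagen receptor kinase of epithelia, was at 247, 208 and 217 CPM in the controls and at 220, 367 and 328 CPM with NRG1, and MRC2, an uptake receptor for collagen, was at 165, 163 and 120 CPM in the controls and at 43.1, 128 and 111 CPM with NRG1.

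The labelled cell type was checked against markers. All 12 airway epithelial markers were detected, the basal markers KRT5 and TP63 among them. The 12 summed to 9621 to 13849 CPM in control and 7573 to 8830 CPM in NRG1. KRT8, KRT18, KRT19, EPCAM and CDH1 of this list are not particular to basal cells. The list went both ways. Of the 12, 3 were lower and 3 higher without overlap, against 10.2% and 9.36% of all genes, and edgeR called 0. The basal markers KRT14, KRT17 and NGFR were lower. KRT14 was at 1322, 591 and 965 CPM in the controls and at 348, 87.5 and 93.5 CPM with NRG1. NGFR was at 18.3, 46.8 and 302 CPM in the controls and at 15.2, 15.7 and 13.6 CPM with NRG1. Its control level was set by control 3. The log2 fold change of NGFR was -3.05 with all libraries and -1.14 without control 3 and NRG1 1. KRT19, EPCAM and CDH1 were higher, and KRT19 was at 383, 121 and 155 CPM in the controls and at 634, 993 and 896 CPM with NRG1. The basal markers KRT5, TP63, ITGA6 and ITGB4 overlapped between groups, as did KRT8 and KRT18. DESeq2 called KRT14 and KRT17 as lower and KRT19 as higher. Fibroblast markers, of a cell type that makes fibrillar chains in tissue, summed to 127 to 175 CPM in control and 113 to 151 CPM in NRG1, so the groups overlapped. Of these 12 markers 7 stayed below 2 CPM in every library, LUM was at most 0.403 CPM and TCF21 was at 0. The sum was held mostly by FBLN1, FBLN2 and PDPN, so its overlap describes mainly these genes. Of the 5 fibroblast markers tested, 4 had a fold change below 0 and 1 above (50% of all genes were below). All 5 overlapped between groups, and edgeR called 0. POSTN, not tested and at most 0.61 CPM, was the only marker of this list without overlap, lower with NRG1. Of 5 endothelial markers in the table CDH5 was at 0, with sums of 1.08 to 2.10 CPM in control and 2.24 to 4.08 CPM in NRG1. Of 6 leukocyte markers CD3E was at 0, with sums of 22.1 to 34.2 CPM in control and 9.77 to 27.9 CPM in NRG1. CD68 held most of the sum in the controls and in NRG1 1. CD14 stood above CD68 in NRG1 2 (6.82 against 5.61 CPM) and in NRG1 3 (5.64 against 3.69 CPM). The airway epithelial sums, held mostly by KRT5 and KRT17, were lower and the endothelial sums higher in every NRG1 library than in every control. The part of these markers in the collagen values was not tested.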

How the data were processed

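Libraries of polyA RNA, 3 control and 3 NRG1, were prepared by TruSeq chemistry, per the labels; the sample titles gave each library's group and number. The submitters' processing notes name hg19, RSEM 1.3.0, STAR 2.5.3a, FastQC 0.11.3 and MultiQC 0.9, with no role for any; no annotation is stated there. The authors deposited expected counts, not normalized, for 57736 genes; RSEM in general shares reads that fit several genes among them. A further table that the authors deposited holds log2 CPM of 14759 genes, 22 of them collagen chains, and was used for 1 alternative only.

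The counts, rounded, entered edgeR 4.0.16 (R 4.3.3; TMM, filterByExpr, quasi-likelihood test, no covariate, Benjamini-Hochberg adjustment over 15421 genes, threshold 0.05). At least 99.7% of the counts of each library lay in tested genes. Transcript lengths came from GENCODE 29. The members, classes, gene lists and the libraries left out together were chosen with earlier results of these data known. Every tested collagen gene is named, and of each further list the 4 tested genes with the smallest p. Alternatives were DESeq2 1.42.0, limma 3.58.1 (log2 of CPM plus 1 or 0.25, and voom), other scalings and filters, a replicate block and left-out libraries; limma on the authors' log2 values and estimateDisp before the fit were chosen after seeing the data. The tests were tried on simulated data. DESeq2 left 15 adjusted p-values undefined.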

Additional observations from a re-analysis of the deposited data

How the results depend on the processing

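With all 6 libraries, edgeR called 1 gene over all genes, 0 collagen chain genes and 0 synthesis, processing or receptor genes. At an unadjusted p under 0.05, 11 of 24 collagen genes were lower and 2 were higher (6.72% and 5.07% of all genes). That share was counted for this fit alone, so the counts at this p below have no background. DESeq2 called 209 genes over all genes (0.759% lower and 0.597% higher), 7 of 24 collagen genes and 5 genes of the further lists. With no low-count filter edgeR called 21 genes over all genes (0.0369% lower and 0.0335% higher) and 2 of 41 collagen genes. In that fit 4 collagen genes were higher at an unadjusted p under 0.05, COL4A3 and COL2A1 among them. Without control 3 and NRG1 1 edgeR called 1547 genes over all genes (4.77% lower and 5.07% higher), 11 of 26 collagen genes and 13 of the further lists. COL4A3 and COL2A1 among the 11, and LOXL4 among the 13, passed the filter through NRG1 libraries alone. In this setting 5 collagen genes were higher at an unadjusted p under 0.05, COL4A3 and COL2A1 again among them. Both limma-trend fits and limma-voom called 2 genes over all genes and 0 collagen genes. Leaving out each library in turn gave 1 to 50 genes over all genes, 0 to 3 collagen genes and 0 to 1 gene of the further lists, each highest without NRG1 1; 7 to 11 collagen genes were lower, 7 without control 1, and 2 to 4 higher. The median log2 fold change of the collagen genes stayed below 0 throughout, from -0.59 to -0.32 over the left-out libraries. Direction turned in 4 collagen genes of those named, none of them called: leaving out libraries in turn, the log2 fold change ran from -0.096 to 0.45 for COL11A2, from -0.037 to 0.60 for COL16A1, from -0.078 to 0.56 for COL7A1 and from -0.15 to 1.22 for COL8A2. The cause of these differences was not tested. With the replicate number as a block, edgeR called 2 genes over all genes and 0 collagen genes. Deviations of same-numbered libraries correlated at 0.020, 0.12 and -0.080, and control 2 correlated best with NRG1 3, at 0.16. These weak values show no pairing by number, but with 3 libraries in each group they cannot exclude one. The labels do not state that the numbers pair the libraries. Genes under 2 CPM rest on few counts, and small differences in them were not detectable at this depth.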
